A study of Drosophila melanogaster and Drosophila simulans and Drosophila yakuba with 4 samples.

Results

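The genes described here are those of the D. melanogaster white prepupa library whose expression reached an FPKM of 1000 or more. FPKM counts the fragments of a gene relative to its transcript length and to the size of the library. It is the unit of the deposited values and was summed over the rows of a gene. By this rule 171 of the 15492 genes listed were members, or 1.10%. The members were chosen by the FPKM of the same library, so their levels are described and nothing is tested on them. The study collected whole animals at the white prepupa stage, the onset of puparium formation, from D. melanogaster and from D. simulans, D. pseudoobscura and D. yakuba. Total RNA was extracted with Trizol and sequenced as 1 library per species, so no value here has a replicate, and no strain, sex, age in hours or treatment is given in the labels. The sample titled as D. melanogaster carries the organism label of D. yakuba, and the sample titled as D. yakuba carries that of D. melanogaster. The title was followed, and 14871 of the 15492 identifiers of its table matched a D. melanogaster gene table.

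At the white prepupa stage a pulse of the steroid hormone ecdysone starts the change from larva to pupa. The larval fat body, an organ that serves as liver and adipose tissue, stores serum proteins that feed the later growth of adult tissues, while larval salivary gland and midgut approach their breakdown. Abundant messenger RNAs of any growing animal also include those of the ribosome, whose proteins are small and made in great number. FPKM divides reads by a length of the transcript and is meant to rank transcripts by their number, whereas reads rank genes by their share of the sequenced RNA. In this library that length was not in proportion to the annotated one, as described below. A high FPKM of a short gene is therefore not a plain order by number. Because the RNA came from whole animals, fewer cells of a tissue and less RNA per cell cannot be told apart in any value below.

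The library held 12038283 implied reads, the reads solved from each gene's FPKM and upper bound. The bounds were taken to lie 2 standard errors of a count above and below the FPKM. Among members the bounds lay a median of 1.501% from the FPKM, between 0.496% for Lsp2 and 3.63% for CG14957 among those with status OK. They cover counting error, and in genes with several transcripts they may hold more than that. Variation between animals was not measured. Among genes with fewer than 300 reads, the implied reads were whole numbers within 0.05 for 94.97% of 4632 genes with 1 annotated transcript and for 35.7% of 3493 genes with several. Of the 160 members with an annotation 113 have several transcripts, and their implied reads are therefore less certain than those of the other 47. Where a bound holds more than counting error, the implied reads are too low.

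The members held 53.8% of the summed FPKM of the library and 34.0% of its implied reads, or 4098989 reads. Their median FPKM was 2602 and their median implied reads 17747, beside 13.7 and 260.0 for all 11549 genes at an FPKM of 1 or more, referred to here as detected genes. The levels thinned out upward, with 69 members between 1000 and 2000, 70 between 2000 and 5000 and 32 at 5000 or more, of which 9 stood at 10000 or more. The 30 members with the highest FPKM held 24.3% of the summed FPKM and 13.3% of the reads. By known function the largest group was the ribosome with 58 genes. It was followed by 37 genes left under a CG number and 11 identifiers with no symbol in the annotation used. The other 65 members fell into 16 small groups, from 11 genes of protein turnover and folding to a single muscle gene. Of the 160 members with a symbol, 90 were sorted by gene lists and 33 by hand. A gene on a list counts as measured where its symbol matched an identifier of the table, so unmatched genes of a list, which may be among the 11 identifiers, are in none of the counts below. Each count stands beside a share of 1.10% over all genes listed and a median FPKM of 6.90.

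**Figure D1:**
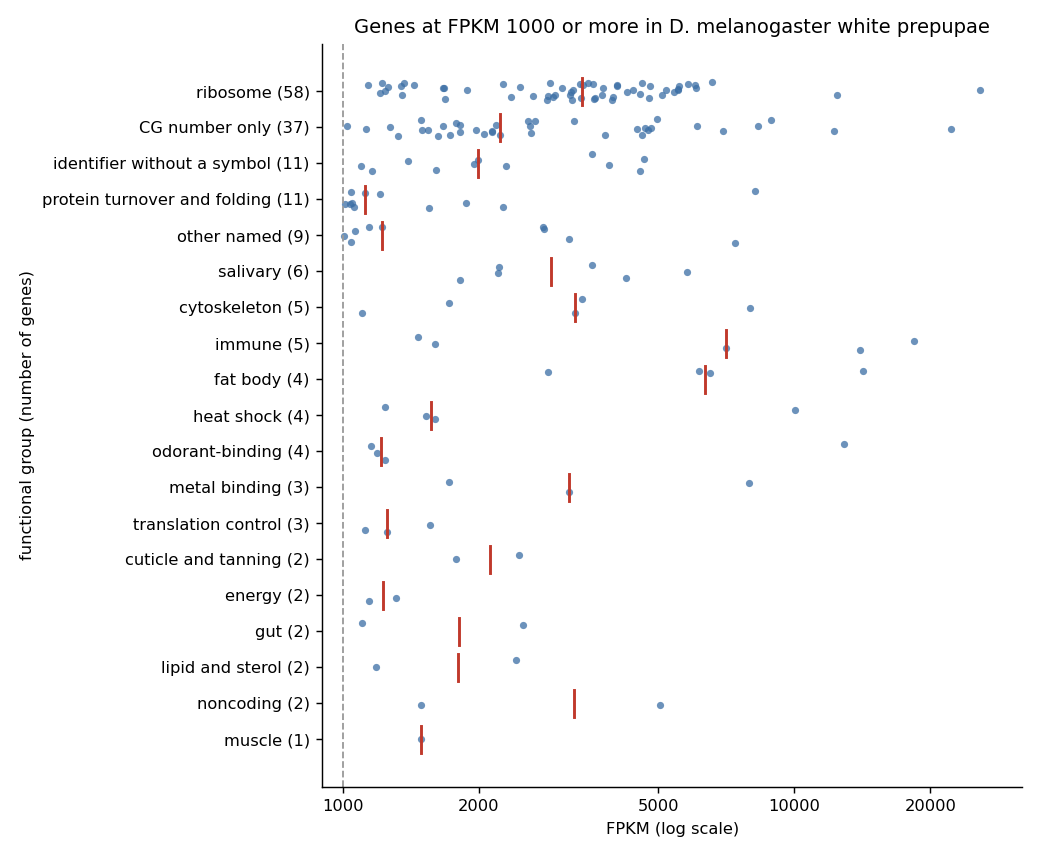
FPKM on a log axis of each of the 171 genes, 1 point per gene, by functional group with the number of genes, with the group median as a red bar and the threshold of 1000 as a dashed line. The ribosomal group is the largest, with 58 genes from 1138 to 25727, and the immune and fat body groups have the highest medians, 7055 and 6323.

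Ranked by implied reads, the 30 highest members held 4 ribosomal genes, against 11 in the 30 highest by FPKM. The fat body had 4 against 3, and the genes left under a CG number 8 against 6. Lsp2 and Fbp1 of the fat body led by reads. Genes of both latter groups also stood high by FPKM, such as CG34244 at rank 2 and Fbp2 at rank 4. Of the 171 members, 123 were also among the 171 genes with the most reads, a share of 71.9%, and 48 were not. The lists of the 10 highest shared 4 genes, those of the 20 highest 13, those of the 30 highest 18 and those of the 50 highest 30. Across the 171 members Spearman's rho between FPKM and reads was 0.56, beside 0.78 across the detected genes. Both measures come from the same table, and genes of a library are not independent replicates. A member had a median of 6.32 implied reads per unit of FPKM, against 17.5 for detected genes, so a given FPKM stood for fewer implied reads in this group. Several annotated transcripts, with which implied reads can be too low, occurred in 70.6% of annotated members and 53.2% of annotated detected genes. Their part in this difference was not tested.

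The 9 annotated genes among the 10 members that rose most in the order from FPKM to reads had longest transcripts of 1227 bases or more. The widest move was that of CIAPIN1, a factor of cytosolic iron-sulfur cluster assembly, from rank 171 by FPKM to rank 32 by reads. Its FPKM was 1005, with bounds of 994.0 and 1017, from 31326 reads. Its locus on 2L overlaps that of yellow-c on the other strand, which had 7650 reads. Mur29B, a mucin-related gene, moved from rank 161 to 44, ple, which encodes the tyrosine hydroxylase of dopamine synthesis, from 112 to 12, and the cytoplasmic actin gene Act42A from 160 to 63. The gene fok rose from rank 146 to 54, BNIP3, a mitophagy receptor gene, from 159 to 68, and the small heat shock gene Hsp27 from 122 to 39. CG7778 rose from 111 to 33, the cyclophilin gene Cyp1 from 107 to 31 and FBgn0000556, which has no symbol in the annotation, from 103 to 27.

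The 10 widest reverse moves belonged to genes with a shortest transcript of 391 bases or fewer. By the shortest transcript the genes that rose and fell nearly meet, since fok, which rose, has a shortest of 394 bases. By the longest transcript they overlap only through CG14664, which fell and has one of 1404 bases in the annotation. Its locus in these data, from 1049861 to 1050492, is shorter than that, so this is not the length behind its FPKM. Some that fell, such as RpS21 with 5 annotated transcripts and CG34166 with 4, have less certain reads. RpS21, a protein of the small ribosomal subunit, stood at rank 26 by FPKM with 5543 and at rank 149 by reads with 7560. RpL29, of the large subunit, fell from rank 18 to 136, and RpL39 from rank 7 to 94. The noncoding lncRNA:CR33948 fell from rank 32 to 142 at an FPKM of 5028 and 8234 reads. CG14664 fell from 21 to 127, CG42500 from 33 to 133, CG15353 from 53 to 150 and CG34166 from 11 to 92. The metallothionein genes MtnD and MtnA, whose small proteins bind copper and other metals, fell from 73 to 164 and from 14 to 97. Their shortest annotated transcripts have 274 and 329 bases, against 2358 for CIAPIN1 and 2911 for ple.

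**Figure D2:**
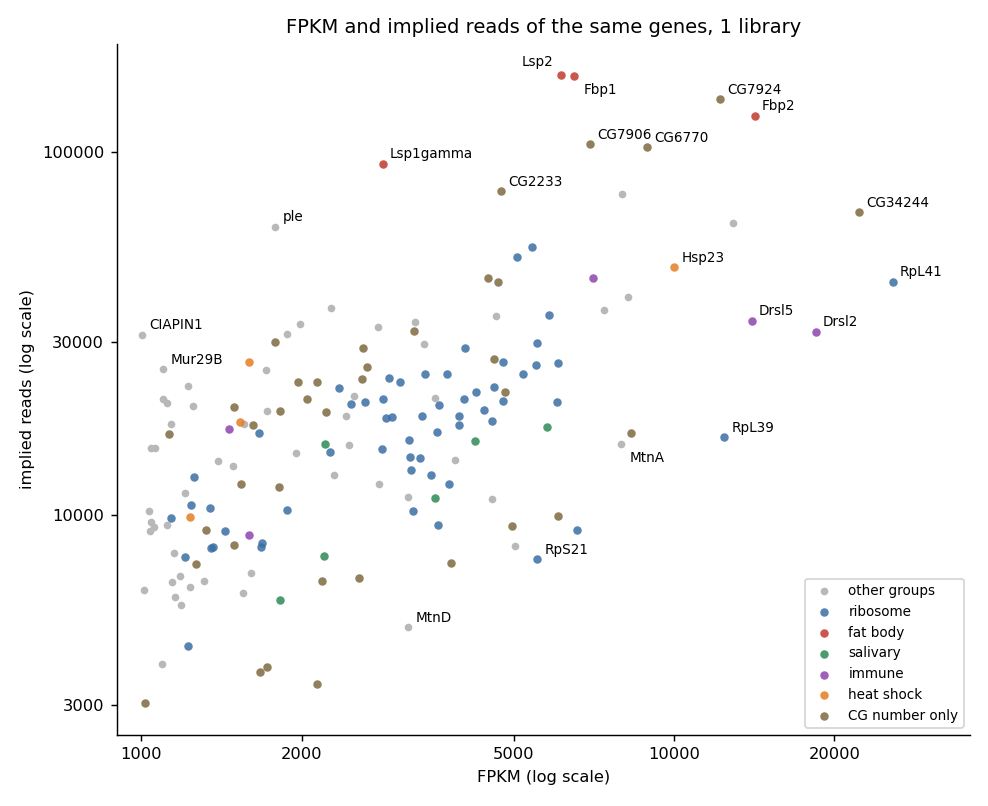
FPKM against implied reads, both on log axes, for 170 of the 171 genes, 1 point per gene, coloured by functional group; snoRNA:CG43051-a, with 83.2 reads from its upper bound, lies below the plot. The fat body genes (red) lie at the top with 92876 reads or more, while RpL41, the highest by FPKM, has 43855 reads and RpS21 lies near the lower edge of the genes above 5000.

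The reads behind equal FPKM differed with transcript length across the whole library, and the members were short. In genes with 1 annotated transcript the reads per FPKM per annotated kilobase had a median of 3.95 up to 300 bases, 8.36 between 400 and 500 bases, 12.1 between 1000 and 1500 bases and 14.4 over 5000 bases. A given FPKM thus stood for fewer reads per annotated kilobase the shorter the transcript was. The longest transcript of the annotated members had a median of 911.5 bases, against 1680 for detected genes. Their proteins had a median of 150 residues, against 397. Proteins of fewer than 100 residues made up 22.2% of the protein-coding members (35 of 158) and 4.92% of the detected protein-coding genes, whereas proteins of 500 residues or more made up 3.16% (5) and 37.9%.

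By bins of the longest transcript, members made up 4.26% of the detected genes between 300 and 400 bases, 3.77% between 500 and 700, 1.64% between 1000 and 1500, 0.2505% between 3000 and 5000 and none of the 956 above 5000 bases. In the shortest bin, up to 300 bases, the share was 1.87% over all detected genes and 5.71% (2 of 35) over the protein-coding ones. The short length is shared by the members and by the measure that chose them, and the part of each was not tested. When reads per kilobase of the longest transcript replaced reads, an alternative chosen after seeing the data, 139 of the 160 annotated members (86.9%) were among the 160 highest. By the shortest transcript it was 146 (91.25%).

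**Figure D3:**
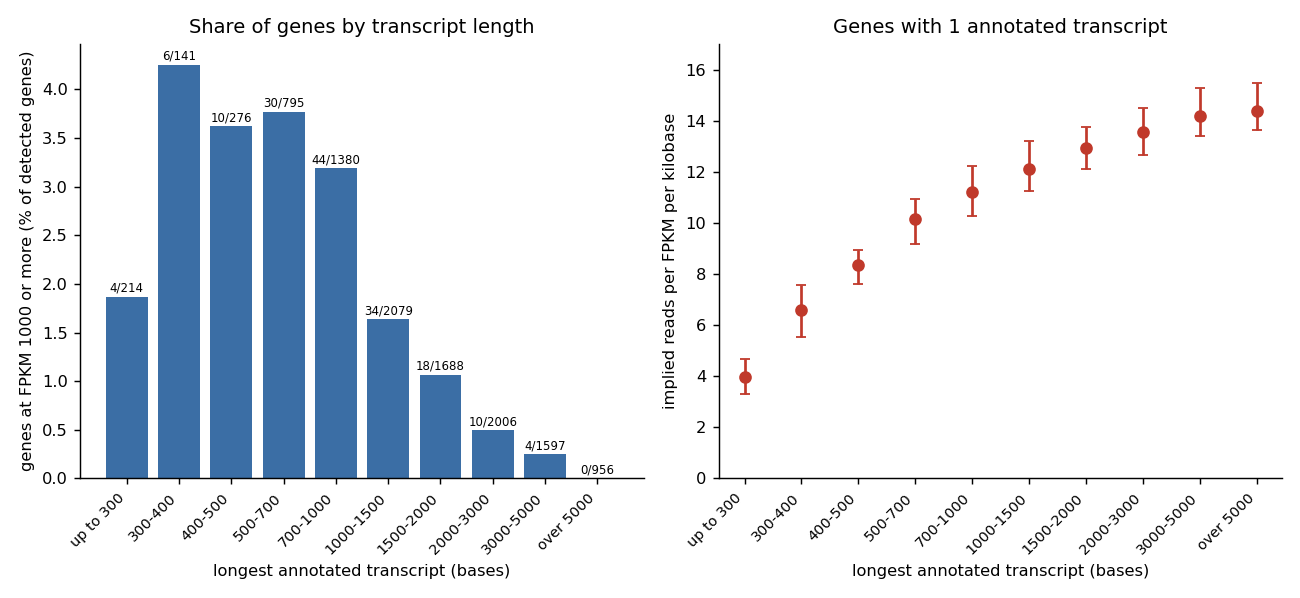
Left, bars of the percent of detected genes that reached FPKM 1000 in each bin of the longest annotated transcript, with counts above the bars. Right, the median and quartiles of implied reads per FPKM per kilobase in genes with 1 annotated transcript: the share falls from 4.26% at 300 to 400 bases to 0 over 5000 bases, and the reads per FPKM per kilobase climb from 3.95 to 14.4.

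The ribosome was the largest group of known function, with 30 genes of the large subunit and 28 of the small subunit, Rack1 counted with the latter. These 58 genes were 33.9% of the members and held 19.8% of the summed FPKM, but 9.06% of the reads. Of the 93 symbols on the list 7 were not matched, so these counts and shares may be too low. RpL41, a peptide of 25 residues, was the highest of all genes at 25727 (bounds 25481 and 25972), on chromosome 2R from 20790940 to 20791452. RpL39, with 51 residues, followed at 12419, then RpL29 at 6576, RpS29 at 6055, RpL38 at 6032 and RpS27A, which encodes a fusion of ubiquitin and a ribosomal protein, at 5816. Between them and the lowest members, the next levels ran without a break from 5543 for RpS21, 5536 for RpL15 and 5516 for RpS28b to 1223 for RpS15Aa, 1207 for RpL35A and 1138 for RpS3. By reads the order was another, with RpS3A at 54676 and RpL5 at 51188 in front of RpL41 at 43855.

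Most proteins of the ribosome are present in equal number, but their messenger RNAs were not listed at equal FPKM. Of 77 measured core genes, a set without 10 duplicate or related genes such as RpS5b, RpS19b and RpL24-like, 58 were members and 19 lay below 1000. The FPKM of the core spanned 154.0-fold, from RpL41 to RpL4 at 167.1, and the reads 40.2-fold, from 54676 for RpS3A to 1360 for RpL34a. The low end is uncertain, since RpL34a has 3 annotated transcripts. Its FPKM was 478.1, and RpL34b at 480.2 had 3305 reads. Among the 19, RpLP1 stood at 988.6, RpS14a at 778.5, RpL7A at 713.7 and RpL18 at 693.7. The lowest were RpLP0, a protein of the stalk, at 220.6, RpL3 at 219.3, RpL22 at 181.1 and RpL4 at 167.1. RpL3 and RpL4 encode the longest proteins of the core, with 416 and 401 residues. The 10 duplicate or related genes all lay below 1000, between 7.85 for RpS28a and 175.4 for RpL24-like.

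Core genes with longer transcripts had lower FPKM. All 8 core genes with a shortest transcript under 500 bases were members, with a median FPKM of 5788. From 500 bases to below 800 it was 42 of 51 with a median of 3057, and from 800 bases on it was 8 of 18 with a median of 666.3. Spearman's rho with the shortest transcript was -0.64 for FPKM, -0.54 for reads per kilobase of that transcript and -0.28 for reads, given as a description over 77 genes that share 1 library. RpS3A and RpL5, with shortest transcripts of 854 and 1024 bases, were exceptions at 5407 and 5078. The reads of the 19 genes below the threshold had a median of 3305, against 18313 for the 58 members, so they were lower by reads as well. RpS14a and RpS14b, and RpL34a and RpL34b, are pairs of nearly alike genes among the 19, and how reads were split between such copies is not stated.

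**Figure D4:**
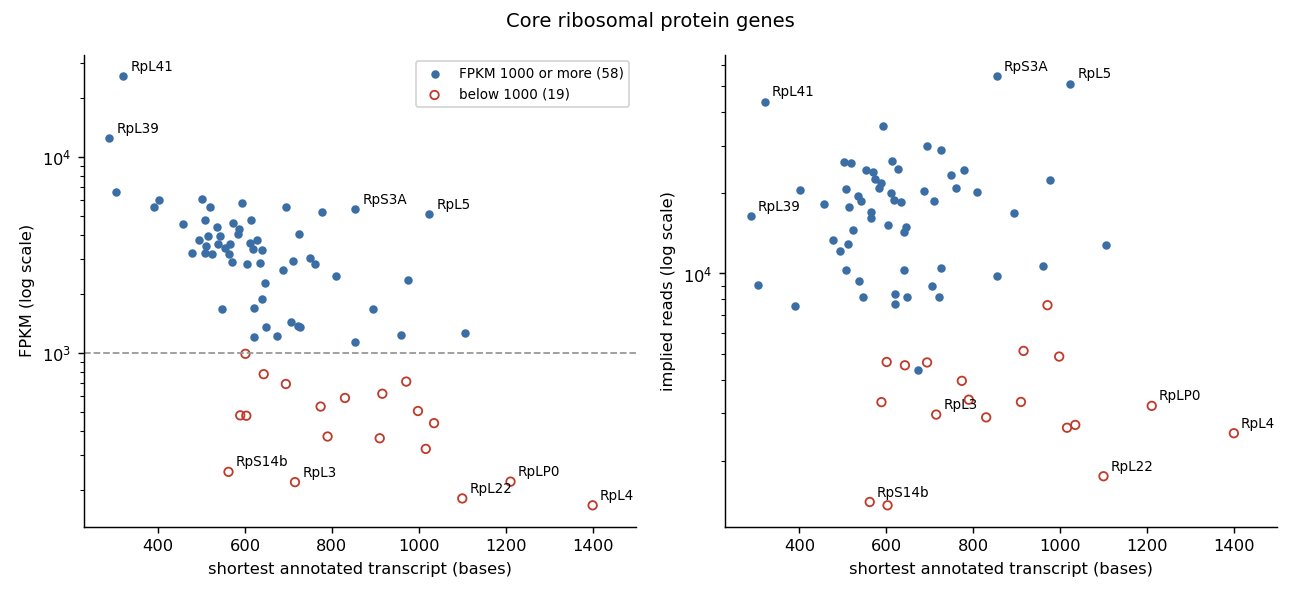
The 77 core ribosomal protein genes by the shortest annotated transcript in bases (both panels), with FPKM on a log axis at left and implied reads on a log axis at right; filled points are the 58 genes at 1000 or more and open points the 19 below. FPKM falls with length (rho -0.64) from RpL41 and RpL39 to RpL4, while reads follow length less (rho -0.28).

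The fat body group was small but took the largest share of reads per gene. Its 4 members, of 10 measured genes on the list, held 2.57% of the summed FPKM and 4.51% of all reads, with a median of 25.7 reads per FPKM. Fbp2, a fat body protein of the alcohol dehydrogenase family, stood at 14160 (bounds 14080.3 and 14240.1) with 125633 reads. Fbp1, the receptor by which the fat body takes up larval serum proteins, stood at 6499 with bounds of 6467 and 6531. Lsp2 and Lsp1gamma, hexamerins that store amino acids, stood at 6146 and 2840. Lsp1gamma moved from rank 79 by FPKM to rank 7 by reads, with 92876. The related subunits Lsp1beta and Lsp1alpha were far lower, at 249.7 and 245.9, so Lsp1gamma stood 11.4 and 11.5 times above them. The proteins of the 4 members ran from 256 residues in Fbp2 to 1029 in Fbp1, above the members' median of 150.

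The gene with most reads below the threshold was another of the fat body list. The apolpp gene, which encodes the precursor of the lipid-carrying apolipophorins and is known from the fat body, had 107824 reads, rank 5 of the whole library. Its FPKM was 662.0, rank 252, on a transcript of at least 10287 bases. The next genes below the threshold, far behind in reads, were lncRNA:CR42862 with 25106, Bsg, which encodes the membrane protein basigin, with 23354, FBgn0051641 with 22504, Lamp1, a lysosomal membrane protein gene, with 22299.9, tal-2A, one of the short open reading frames of tarsal-less, with 20661, and the calmodulin gene Cam with 19587. FBgn0040001 with 18554, the scavenger receptor gene santa-maria with 18057 and Gdap2 with 17767 complete the 10 highest.

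The salivary group consisted of 6 of 22 measured genes on its list, which had a median of 60.6. These 6 belong to the Eig71E cluster, which is induced late by ecdysone and encodes small secreted proteins. Eig71Ea stood at 5787 (bounds 5699 and 5874), Eig71Eb at 4235 and Eig71Ed at 3554. Eig71Ec followed at 2215, Eig71Eg at 2207 and Eig71Ef at 1820.0. The bounds of Eig71Ec and Eig71Eg overlap, while those of the other neighbours in this order do not. All but Eig71Ec, with 173 residues, encode proteins of 95 to 100 residues, and no member of the group was among the 30 genes with the most reads. Their reads ranged from 5828 to 17470. The other Eig71E genes of the list were far below the threshold, Eig71Eh at 128.9, Eig71Ei at 120.8, Eig71Ee at 22.7, Eig71Ej at 3.66 and Eig71Ek at 2.50. The glue genes, which are expressed earlier in the gland, were below the threshold too, with Sgs8 highest at 546.4.

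Immune and stress peptides contributed 5 members, with 3.68% of the summed FPKM and 1.14% of the reads. Drsl2 at 18433 (bounds 18227 and 18639) and Drsl5 at 13998 (bounds 13847 and 14149) encode peptides of 70 and 69 residues related to the antifungal drosomycin. Their loci lie near each other on 3L, from 3314349 to 3314681 and from 3316781 to 3317144. PGRP-SB2, a secreted peptidoglycan recognition protein, stood at 7055, TotA, a secreted stress factor of the Turandot family, at 1595 and vir-1, a gene first known as virus-induced, at 1464. The list of antimicrobial and related genes holds 52 symbols, of which 12 were not matched. Of the 40 measured, 3 were members, and the next of the 40 was the antimicrobial peptide gene Metchnikowin, Mtk, at 749.6. The median of the 40 was 24.0.

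The gut list gave 2 members, the muscle list 1 and the cuticle list none. Of 55 measured gut genes 3.64% were members, the midgut protease gene Jon65Aiv at 2508 and Mur29B at 1099.8, and the next were Jon65Aiii at 937.1, the lysozyme gene LysX at 905.0 and Jon65Ai at 773.1. The median of the gut list was 4.87, below the 6.90 of all genes. Of 26 measured muscle genes, with a median of 12.2, 3.85% were members, that is Zasp66 alone, a protein of the Z-disc, at 1487, and the next was tropomyosin 1, Tm1, at 296.2. The 39 measured genes of the cuticle list had a median of 1.73, and the highest was obst-A at 560.4. Outside that list the cuticle protein gene Cpr49Ac stood at 2452. The ple gene, whose product makes the precursor of the dopamine used in tanning the cuticle, stood at 1784 with 62262 reads.

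Small heat shock proteins and proteins of folding and degradation formed a further set. Hsp23 stood at 10012 (bounds 9921 and 10103) with 48103 reads, followed by Hsp27 at 1597, Hsp26 at 1531 and CG14207, another gene of the family, at 1236. Of the 19 measured genes on the heat shock list, with a median of 24.8, 3 were members and 5 were below an FPKM of 1. The gene l(2)efl, of the same family, missed the threshold at 999.6, and Hsp67Bc stood at 810.9. The chaperone gene Hsp83 stood at 486.5 and Hsp22, without the status OK, at 49.5. In the group of protein turnover and folding, cer, an inhibitor of cysteine proteases known as crammer, was far ahead at 8180. It was followed by Atg8a, a core component of autophagosomes, at 2268, Cyp1 at 1878, the cystatin gene Cys at 1551 and the SUMO gene Sumo at 1207. The other 6 lay between 1013 and 1120: BNIP3, the proteasome genes Prosbeta4 and Prosalpha2, the cyclophilin gene CG2852, Rab7, a GTPase of late endosomes, and Fkbp12.

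Of 11 measured genes on the cytoskeleton list 5 were members, namely actins and proteins that bind actin. The beta-thymosin gene cib stood at 7989 with 76664 reads, rank 9 by reads, tsr, which encodes cofilin, at 3389 and chic, which encodes profilin, at 3271. The cytoplasmic actins Act5C and Act42A stood at 1717 and 1101. Their coding sequences are close to each other and to those of other actins, so the split between them is uncertain. All 5 were among the 171 genes with the most reads.

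Odorant-binding proteins are small carriers of hydrophobic molecules that are also found outside the sense organs. Of the 12 genes on their list 4 were members, and these counts hold for the list, not for the whole family. Obp99b stood at 12912 with 63595 reads, 10.4 times Obp56d at 1237, and the bounds of Obp56d and of Obp99c at 1188 overlap, as do those of Obp99c and Obp44a at 1152. The next gene of the list, Obp99a, stood at 104.2, and 4 of the 12 were below an FPKM of 1. Metal-binding genes gave 3 members, MtnA at 7942, MtnD at 3172 and the ferritin subunit gene Fer2LCH at 1720, while MtnB and MtnE stood at 761.9 and 683.3. The locus of Fer2LCH overlaps that of its partner Fer1HCH on the other strand, which stood at 665.4 with 11142 reads.

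In oxidative phosphorylation the share of members was near that of all genes, and the medians of both energy lists were above that of all genes. Of 69 measured genes of oxidative phosphorylation encoded in the nucleus, with a median of 187.4, 1 (1.45%) was a member. It was ATPsynC, the ring subunit of ATP synthase, at 1311, and ND-MLRQ at 974.6 and ATPsynbeta at 967.1 came next. Of 11 measured glycolysis genes, with a median of 42.6, none was a member, and Gapdh2 was highest at 369.1. The nucleoside diphosphate kinase gene awd stood at 1143. The 13 protein-coding genes of the mitochondrial genome were listed at 38.7 or lower, 3 of them at 0, and the 37 mitochondrial genes together held 0.0337% of reads.

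Genes around translation included Tctp at 1558, kra, a regulator of initiation, at 1252 and Thor, the 4E-binding protein that restrains cap-dependent translation, at 1120.1. Of 22 translation factors on the list 3 were not matched. Among the 19 measured, with a median of 236.4, 1 was a member, Tctp, and eIF1 at 883.4 and eEF2 at 791.4 were next. In lipid transport, the fatty acid binding protein gene fabp stood at 2420 and Npc2a, a sterol-binding protein gene, at 1182. The remaining named members were CREG at 7380 (bounds 7303 and 7457), His4r, a histone H4 gene outside the histone cluster, at 3173, Mettl5, a methyltransferase of ribosomal RNA, at 2789 and Sclp at 2781. The gene fok stood at 1223, Arf1, a GTPase of the Golgi, at 1140, crc, the fly ATF4, at 1064, 14-3-3zeta at 1044 and CIAPIN1 at 1005. All 9 were among the 171 genes with the most reads.

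The 37 members left under a CG number, on no list and not sorted by hand, held 12.4% of the summed FPKM and 8.73% of the reads. CG14207 and CG2852, also named by a CG number, were sorted by hand into other groups. No role is given here for the 37, which does not mean that none is known. The group was close to the ribosome in reads with fewer genes. The highest were CG34244 at 22230 (bounds 22060.0 and 22400.4), CG7924 at 12223, CG6770 at 8891, CG34166 at 8322, CG7906 at 6964 and CG14664 at 6070. The lowest were CG33998 at 1270, CG8539 at 1127 and CG14957 at 1019. By reads CG7924 with 139711, CG7906 with 105157 and CG6770 with 102954 stood at ranks 3, 5 and 6 of the members. CG2233 with 77875 reads, CG34244 with 68238, CG5171 with 44881 and CG10912 with 43920 were also among the 20 highest by reads. Their proteins were short, with a median of 127 residues: CG6770 encodes 69 residues, CG34244 112, CG7924 321 and CG7906 356.

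The 11 identifiers that matched no symbol held 1.44% of the reads. The highest were FBgn0034967 at 4638 with 35270.3 reads, FBgn0010381 at 4550.3 with 11051 and FBgn0025286 at 3888 with 14207. FBgn0261606 stood at 3558, FBgn0260441 at 2297, FBgn0000556 at 1989 with 33485 reads and FBgn0002607 at 1949. FBgn0040954 at 1611, FBgn0020439 at 1392, FBgn0030079 at 1160.1 and FBgn0261593 at 1095 were the lowest. They stay out of the counts by function and by transcript length, and their roles were not analysed here.

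Of the members, 40 each lay on 2L and 3L, 35 on 3R, 34 on 2R, 20 on X, 1 on chromosome 4 (RpS3A) and 1 in the heterochromatin of 3L (RpL15). Of all genes listed, members made up 1.35% on 2L, 1.35% on 3L, 1.07% on 2R, 0.955% on 3R and 0.854% on X. In 10 places the next listed gene after a member was also a member, which took in 18 genes. Runs of 3 or more members within 50000 bp numbered 10 and took in 34 members. No matching figure for other genes is given here, so these counts do not show whether members cluster. Coordinates are those of the tables on the build dm3.

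The run with the most reads was that of CG7924, CG34244 and CG7906 on 3L from 14226569 to 14231372, a span of 4804 bp with no other listed gene. These 3 genes held 2.60% of all reads, and CG34244 lies on the minus strand between the other two on the plus strand. The cluster of 6 Eig71E members on 3L from 15642226 to 15651258 also held Eig71Ee at 22.7 and CG43084 at 9.45, so genes 80.3 times or more below the lowest member of the cluster lay among the members within 9033 bp. On the same arm Hsp26, Hsp23 and Hsp27 lay from 9369518 to 9378382, with Hsp67Ba at 22.4 between Hsp26 and Hsp23. On 2L CG31775, CG42586 and CG34166 lay from 14737097 to 14743859, with CG42585 listed at 0. CG31775 and CG42586 both span 670 bp, encode 89 residues and stood at 1670.2 and 1726 with overlapping bounds, and how reads were shared between them is not stated.

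The other runs each mixed genes of different groups. Several also held genes of the same group, such as RpL12 and RpL39 or Obp99c and Obp99b. On 2R tsr, FBgn0034967, RpL12 and RpL39 lay within 17982 bp with 5 other genes at 89.01 or lower, and RpS16, RpS24 and CG2852 within 40226 bp. On 2L CG7778, Mur29B and RpS13 lay within 17990 bp, around CG7627 at 15.9. On 3L CG14957, CG32276 and RpL28 lay within 35398 bp with Hsp83, and on 3R RpS20, RpS30 and TotA within 49520 bp. Also on 3R Obp99c, Obp99b and CG34296 lay within 37278 bp, with Obp99d listed at 0 among them.

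Of the 171 loci 108 overlapped no other listed gene and 63 did, 39 of them a protein-coding gene. The share over all listed genes is not given here, so the counts are not read as a trait of the members. Whether the libraries kept the strand is not stated, so reads from overlapping exons cannot be assigned. In 9 members the gene with most reads among those overlapping had more than 10% of the member's own reads. They included Rack1, with 12760 reads beside 11137 for CG7115, fabp with 18700.2 beside 10158 for sea, and RpS27A with 35440 beside 3955 for Ip259. The same held for Obp44a and Prosalpha2, for Fer2LCH and CIAPIN1 named above, and for snoRNA:CG43051-a. That small nucleolar RNA gene, with a transcript of 147 bases inside the locus of bun, was the only member without the status OK. It was listed at 1486 with a lower bound of 0 and an upper bound of 1812, which stands for 83.2 reads, and its status was LOWDATA.

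Around the threshold the order was not resolved for every gene. Just above it stood CG2852 at 1040 (bounds 1018 and 1062), Rab7 at 1036, CG14957 at 1019 (bounds 981.7 and 1056), Fkbp12 at 1013 (bounds 987.4 and 1039) and CIAPIN1 at 1005 (bounds 994.0 and 1017). Just below it stood l(2)efl at 999.6 (bounds 975.8 and 1023), RpLP1 at 988.6 (bounds 959.7 and 1018), Lamp1 at 983.4, the histone H3.3 gene His3.3B at 979.1 and CG9812 at 976.6. The lower bound was at 1000 or more in 167 of the 171. Of the 5 genes just below, the upper bounds of l(2)efl and RpLP1 passed 1000.

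The same rule applied to the other species gave 177 genes in D. pseudoobscura with 30.1% of the implied reads of that library, 229 in D. simulans with 38.5% and 240 in D. yakuba with 37.7%. Genes were not matched between species here, and each library has its own annotation and depth, so these counts stand side by side without a test. In all 4 libraries the members had shorter loci than the detected genes, with medians of 1141 and 2100 bp in D. melanogaster, 750.0 and 1566 in D. pseudoobscura, 528 and 1541 in D. simulans and 480.0 and 1549 in D. yakuba.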

How the data were processed

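RNA from whole white prepupae was measured with 1 library per species. After trimming, single-end reads were aligned by the authors with TopHat, and Cufflinks gave the deposited FPKM of each gene, a lower bound, an upper bound and a status. Bowtie, SAMtools and dm3 stand in the submitters' processing notes. Not given in the sources used here are tool versions, the strand of reads and the handling of reads with several matches. The library titled D. melanogaster was used.

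Rows were summed per gene, and genes at an FPKM of 1000 or more were kept. Implied reads were solved as the square of 2 times FPKM over the distance to the upper bound, and the arithmetic was tested on simulated data. Totals and shares of reads used rows with status OK only. Ranks by reads, Spearman's rho and the medians over members and detected genes took in every status. The table's coordinates match an annotation of the newer dm6 assembly at 1960 of 2860 starts on 2L when counted from 1. That annotation (Ensembl BDGP6) gave symbols, transcript and protein lengths, exons and strand, so lengths may differ from those the authors used. Some of its transcripts, such as the longest of CG14664 and of Mettl5, are longer than the locus of the gene in these data. The members, gene lists and groups were chosen with earlier results of these data known. The genes named were the 20 highest by FPKM, the 20 with most reads, the 10 largest moves in rank each way, group members (the 6 highest and 3 lowest in large groups), 5 genes on each side of the threshold, runs of 3 or more members within 50000 bp and the 10 genes below the threshold with most reads. Further list genes and the genes inside runs were named after their values were seen. Alternatives varied the threshold, the status, the bound used, the join of rows and the low filter. Sequences and promoters were not analysed here. Values were computed in Python 3.11.15 (pandas 2.3.3, numpy 2.4.6, scipy 1.17.1) and drawn with matplotlib 3.10.9.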

Additional observations from a re-analysis of the deposited data

How the results depend on the processing

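Of 23 alternatives, 15 stayed within the tolerance set for each kind of value and 8 did not. The tolerance was 1.5 times for a count of genes, the 95% Wilson interval of 64.8 to 78.1 for the percent also among the highest by reads, and 0.5% of the value for the rest, so the small moves of the median reads per FPKM fall outside it and larger moves of counts within it. With a threshold of 500 the members numbered 337 and held 43.98% of reads, and with 2000 they numbered 102 and held 26.2%. The ribosomal members numbered 66 and 45 at these thresholds, and the share of members also among the highest by reads was 72.1% and 66.7%. The share of members among the highest was 86.9% and 91.25% by reads per kilobase of the longest and the shortest transcript, 2 alternatives chosen after seeing the data, and the annotated protein-coding members alone, also chosen then, numbered 158. The reads per FPKM of detected genes had a median of 17.7 with a minimum FPKM of 0.1 and 15.7 with 5. The largest row in place of the sum removed no member, since each of the 171 is 1 row. The planned search for promoter motifs was not run. No paired analysis was possible because each species has 1 library and no test was made. Depth does not limit the members with status OK, with 3027 implied reads or more, but the spread between animals was not measured, and a longer or shorter transcript model than the authors' would change reads per kilobase.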
